A study of Mus musculus with 20 samples.

Results

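The 13 mice described here had all received a dust extract into the nose and differed in what they had eaten. They were the 7 mice of the DHA diet + HDE group and the 6 of the control diet + HDE group, chosen by the group in their labels, out of 20 mice measured. HDE is a filtered extract of settled dust from swine barns, and DHA is docosahexaenoic acid, a long omega-3 fatty acid. The DHA diet drew about 1.4% of its calories from DHA, through an algal oil (DHASCO, 39.2% DHA) mixed with high-oleic safflower oil, on the AIN-93G base. The control diet held high-oleic safflower oil in place of that oil and no DHA. All mice were wild-type C57BL/6J males, 5 to 8 weeks old when obtained and fed the diet for 4 weeks, and each received 50 µL of 12.5% HDE into the nose 5 h before the left lung was taken. The other 7 mice (3 on the DHA diet and 4 on the control diet) had received saline into the nose. They serve here as a baseline and, near the end, in a comparison of the diet difference between exposures. The comparison asks how a DHA-rich diet alters immune transcripts in the lung during acute dust exposure.

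As background, inhaled swine dust carries bacterial cell wall products that engage Toll-like receptors on alveolar macrophages and airway epithelium. These cells then release TNF, IL-6 and chemokines such as CXCL1, which bring neutrophils and monocytes into the airspaces within hours. DHA is incorporated into cell membranes, where it competes with the omega-6 fatty acid arachidonic acid, and it is the precursor of the resolvins, lipid mediators that limit neutrophil entry and favor clearance of debris by macrophages.

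RNA was counted with barcoded probes on the NanoString mouse Immunology panel, without amplification. Raw counts over the 547 endogenous probes summed to 141852 to 684074 in DHA mice (median 264390) and to 129599 to 578569 in control mice (median 374557). Values below are scaled counts, that is, raw counts divided by the geometric mean of the housekeeping genes Eef1g, Oaz1, Ppia and Rpl19 in the same lung and brought back to the level of an average lane. Genes averaging at least 82 scaled counts over the 13 mice were tested, which kept 357 and left out 190; Fadd (84.91) and Lilra5 (82.08) were the last to enter and Tnfsf14 (81.89) and Tyk2 (81.83) the first to stay out. By the first part of their titles, a date and a number, the lanes fall into 2 runs nearly a year apart, called cartridges here, with 4 DHA and 2 control mice on cartridge 1 and 3 DHA and 4 control mice on cartridge 2. The lungs came from several experimental sets, and the labels do not give the set of each mouse, so set and diet cannot be told apart. Surfactant genes were not among the probes analysed here. The epithelial mucin gene Muc1 held 3946 to 7918 scaled counts in DHA mice and 2051 to 6236 in control mice, and the endothelial gene Pecam1 held 1127 to 4842 in DHA mice and 1372 to 6118 in control mice.

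A pair of control lungs stood apart, and many of the results and list medians below are also given without 1 or both of them. Control mouse 6, whose library is labelled HDE, exceeded the highest of the 7 saline mice in 1 of 357 genes, whereas the other 12 mice did so in 99 to 249. It lay below the lowest saline mouse in 172 genes, against 13 to 106 in the other 12 mice. Its summed scaled count over the tested genes, 149821, was under that of every saline mouse (at least 182619). The geometric mean of its housekeeping genes, 6827.5 raw counts, was the highest of all lanes. It held 26.5 scaled counts of Cxcl1, against 221.4 to 2694 in the DHA mice, 651.5 to 1671 in the other 5 control mice and 20.7 to 67.7 after saline, and it was the lowest of the 13 mice for 203 of 357 genes. Control mouse 3 held 4865 scaled counts of Rag1, the recombinase that assembles antigen receptors in immature lymphocytes, against 4.7 to 48.7 in the DHA mice and 5.3 to 348.2 in the other control mice.

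Set against each other, the diets gave small and variable differences. At an adjusted p under 0.05 (edgeR's quasi-likelihood test, Benjamini-Hochberg over 357 genes) 0 genes differed (0% of those tested). With DESeq2, 3 genes passed under its default size factors (Ccr9, Cd27 and Lck) and 1 passed under housekeeping scaling (Thy1), all lower on the DHA diet, and limma called 0. At the unadjusted p of at most 0.05 that the study used, 4 genes (1.12%) were higher on the DHA diet and 13 (3.64%) were lower. The 4 higher genes were Marco, Bcl3, Btk and Tgfbi. Of the 13 lower genes, 12 were Rag1, Thy1, Tcf7, Lck, Ccr9, Ccl25, Cd27, Cd3d, Cd3e, Cd4, Cd247 and Gata3, all of them known from T cells or the thymus. In no gene did the DHA and control mice separate without overlap (0% of genes), and this remained so without control mouse 6.

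**Figure D1:**
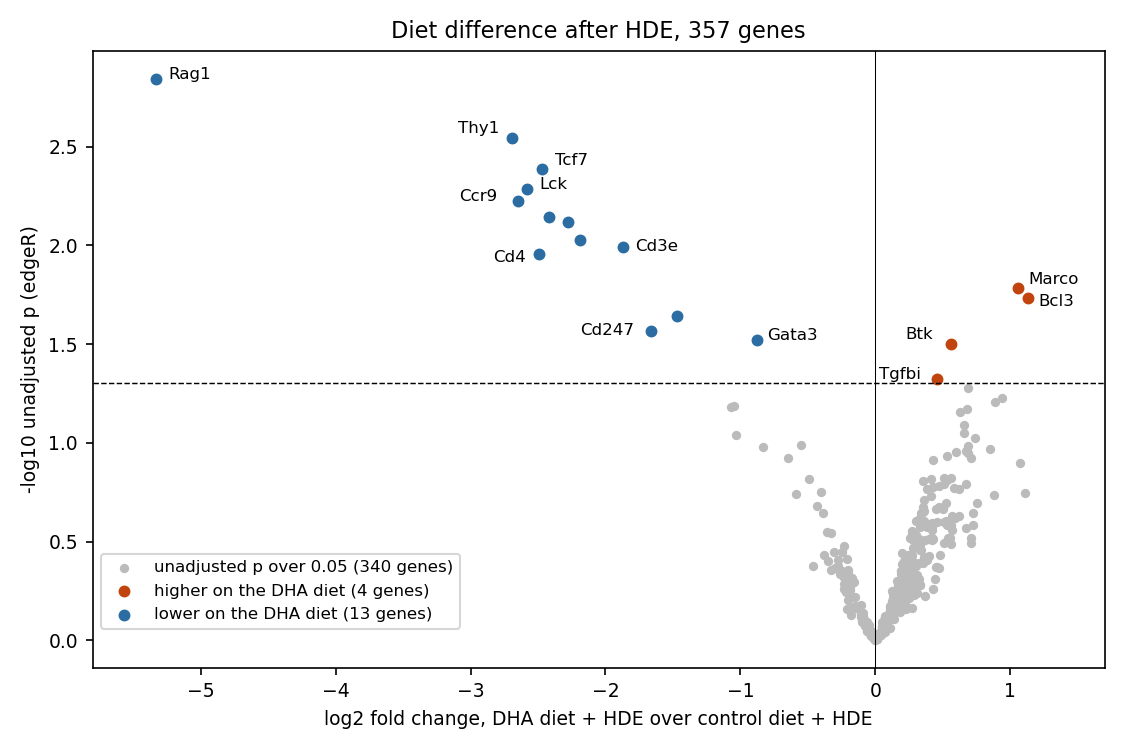
Each point is 1 of 357 genes, with the log2 fold change of the 7 DHA diet + HDE mice over the 6 control diet + HDE mice on the horizontal axis and -log10 of the unadjusted edgeR p on the vertical axis; the dashed line marks the unadjusted threshold of 0.05. The 13 lower genes lie between -5.33 (Rag1) and -0.88 (Gata3), and the 4 higher genes lie between 0.46 and 1.13.

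The typical gene was measured with a standard error of 0.34 on the log2 scale (median over 357 genes). The 95% interval of the fold change lay entirely within 2-fold either way for 197 genes, and for the other 160 it reached beyond 2-fold. The fitted change exceeded 2-fold for 19 genes, 4 higher and 15 lower. The median log2 fold change over all genes was 0.14, with 243 genes above 0. With TMM scaling, which uses the panel genes in place of the housekeeping genes, the median was -0.06 and 151 genes were above 0, so the direction of a small change depends on the scaling.

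Marco gave the clearest difference among macrophage genes. It encodes a scavenger receptor with which alveolar macrophages bind bacteria and unopsonized particles. The DHA mice held 350.5 to 1248 scaled counts (773.0, 498.3, 437.7, 1248, 350.5, 379.3 and 480.7 in mice 1 to 7), against 413.8, 412.2, 300.1, 262.1, 245.8 and 74.5 in control mice 1 to 6. All 7 DHA mice lay above the control median of 281.1, 5 of them lay above the highest control mouse, and 4 control mice lay below the lowest DHA mouse. After saline the range was 104.5 to 160.1 on the DHA diet and 87.6 to 208.1 on the control diet. Means were 595.4 ± 319.3 in DHA mice and 284.8 ± 126.0 in control mice (SD), a log2 fold change of 1.06 (SE 0.40, 95% interval 0.22 to 1.90, edgeR unadjusted p = 0.0165, adjusted p = 0.535). A two-sided exact permutation test over the 1716 arrangements of the 13 mice gave p = 0.0105, unadjusted, 1 of 34 such tests on named genes. The log2 fold change of Marco was 0.86 without control mouse 6 and 0.83 without control mice 3 and 6, past the unadjusted threshold both times, and 0.78 without DHA mouse 4, the highest, just short of it. It was 0.83 on cartridge 1 and 0.87 on cartridge 2, in neither of which it passed. In whole-lung RNA, a difference in the number of cells of a type and a difference in RNA per cell cannot be told apart.

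Other scavenger and alveolar macrophage genes differed less. Of 5 tested, 4 lay above 0 and Marco alone reached the unadjusted threshold, with a list median of 0.41 beside 0.14 for all genes, and 0.10 beside -0.02 without control mice 3 and 6. Of 10 monocyte and macrophage markers tested, 8 lay above 0 and none passed that threshold. Their median was 0.31, or 0.10 without control mice 3 and 6. Itgax, which encodes the integrin CD11c of alveolar macrophages and dendritic cells, ranged from 301.5 to 1005 in DHA mice (median 522.7) and from 213.5 to 593.2 in control mice (median 296.4). Its highest value belonged to DHA mouse 4, and the groups overlapped over most of their range. The log2 fold change of Itgax was 0.63 (SE 0.32; exact permutation p = 0.0618) and 0.40 without DHA mouse 4. Msr1, the class A scavenger receptor, gave 0.41 (95% interval -0.41 to 1.23), and Cd36, which takes up oxidized lipids and fatty acids, gave -0.19 (95% interval -0.88 to 0.49). Both diets left Cd36 mostly below saline, at 1154 to 4512 in DHA mice and 2598 to 5957 in control mice, against 5146 to 7487 in saline mice.

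**Figure D2:**
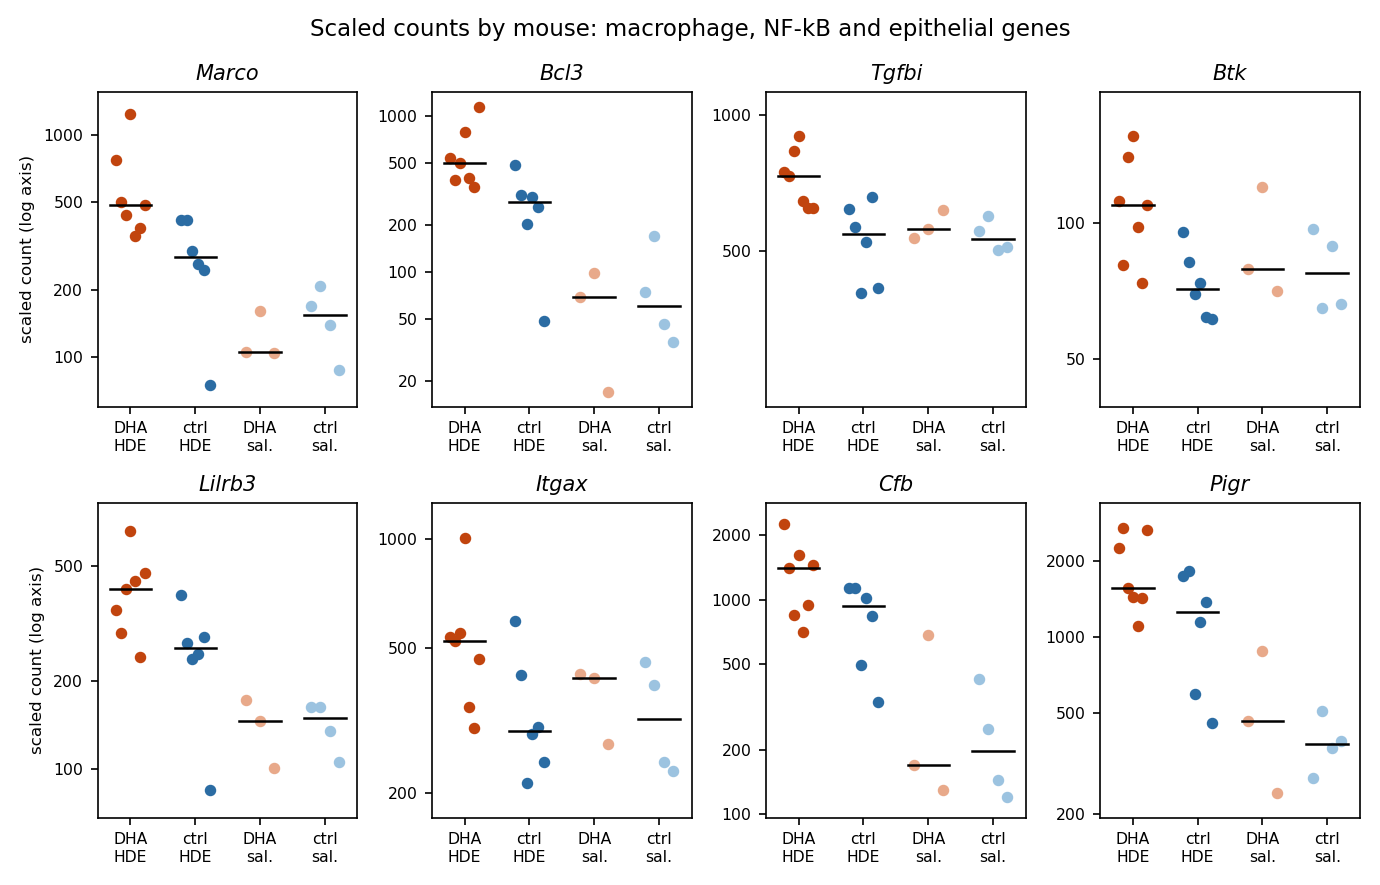
Scaled counts (log axis) of Marco, Bcl3, Tgfbi, Btk, Lilrb3, Itgax, Cfb and Pigr in each mouse of the DHA diet + HDE (n = 7), control diet + HDE (n = 6), DHA diet + saline (n = 3) and control diet + saline (n = 4) groups; each point is a mouse and each bar a median. In each panel most DHA mice lie above the control median, and the groups given HDE overlap. The lowest control point for Marco (74.5), Bcl3 (48.8) and Lilrb3 (84.7) is control mouse 6.

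Bcl3 had the highest fold change of all tested genes. It encodes an atypical IκB protein that works in the nucleus with the p50 and p52 subunits of NF-κB and restrains or enhances their target genes. The DHA mice held 540.4, 387.0, 498.8, 789.2, 403.4, 352.4 and 1139 scaled counts, against 487.9, 309.8, 202.5, 303.5, 262.3 and 48.8 in the control mice. DHA mouse 7 was the highest, 4 DHA mice lay above every control mouse, and 5 control mice lay below every DHA mouse. The log2 fold change was 1.13 (SE 0.43, 95% interval 0.22 to 2.03, edgeR unadjusted p = 0.0184, adjusted p = 0.549; exact permutation p = 0.00932). It was 0.90 without control mouse 6 and 0.78 without control mice 3 and 6, past the unadjusted threshold both times, and 0.88 without DHA mouse 7, just short of it. Bcl3 gave 0.46 on cartridge 1, short of the threshold, and 1.63 on cartridge 2, past it, where control mouse 6 lay, and the difference between cartridges was not tested. After saline, Bcl3 held 17.2 to 98.8 on the DHA diet and 35.9 to 170.3 on the control diet.

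The other NF-κB genes did not reach the threshold. Of 19 tested, Bcl3 included, 14 lay above 0, beside 243 of all 357 genes, with a median of 0.35 beside 0.14, and Bcl3 was the only member past the unadjusted threshold. Relb, a subunit of the alternative pathway, ranged from 737.2 to 2239 in DHA mice (median 1498) and from 147.9 to 1329 in control mice (median 1005), a log2 fold change of 0.69 (95% interval -0.18 to 1.55). Nfkbiz, another nuclear IκB protein, gave 0.60 (95% interval -0.15 to 1.35), and Nfkbia, the cytoplasmic inhibitor that NF-κB itself induces, gave 0.62 (95% interval -0.30 to 1.54). The kinase genes Ikbkb (-0.23), Chuk (0.12) and Ikbkg (0.07) lay near 0. Without control mice 3 and 6 the list median was 0.19, beside -0.02 for all genes, and with TMM scaling it was 0.06.

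Tgfbi and Btk were the other higher genes, with small and even differences. Tgfbi encodes a secreted matrix protein that TGF-β induces in macrophages and fibroblasts. It held 745.9, 731.6, 834.0, 900.4, 645.4, 621.4 and 623.0 scaled counts in the DHA mice, against 620.0, 565.8, 402.6, 523.0, 659.1 and 413.4 in the control mice. The DHA mice were high relative to saline (501.6 to 616.1 over all 7 saline mice), and 5 of 6 control mice lay below every DHA mouse. The log2 fold change of Tgfbi was 0.46 (SE 0.21, 95% interval 0.01 to 0.91, p = 0.0472, adjusted p = 0.971; exact permutation p = 0.00816). It was 0.30 without control mice 3 and 6 and 0.27 with TMM scaling, short of the unadjusted threshold in both. Btk, the tyrosine kinase of B cells and myeloid cells, ranged from 73.5 to 156.4 in DHA mice (median 109.6) and from 61.3 to 95.8 in control mice (median 71.6), and 5 DHA mice lay above every control mouse. Its log2 fold change was 0.56 (SE 0.24, p = 0.0314, adjusted p = 0.700; exact permutation p = 0.0140), and 0.48 without control mice 3 and 6, short of the unadjusted threshold. It was short of it also with TMM scaling (0.33). Values of Btk lay near the limit of 82 counts in both groups, and the B cell markers Ms4a1 (0.30) and Cd79b (0.00) did not pass the threshold.

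The other genes that the study named for this comparison, Lilrb3, Cfb, Stat5b and Itgax, missed the unadjusted threshold in the main edgeR fit. Other settings differed. Lilrb3 and Stat5b passed it in edgeR with TMM scaling, and Lilrb3 and Itgax with all 4 groups in 1 model. Cfb, Itgax and Lilrb3, but not Stat5b, passed it in DESeq2 under housekeeping scaling. Only Lilrb3 of these genes passed it in limma. Lilrb3, an inhibitory receptor of myeloid cells, held 241.7 to 657.1 in DHA mice (median 414.5) and 84.7 to 395.0 in control mice (median 259.6). Its log2 fold change was 0.69 (SE 0.33; exact permutation p = 0.0326), and 0.51 without control mouse 6. Cfb, complement factor B of the alternative pathway, held 712.1 to 2263 in DHA mice (median 1415) and 334.0 to 1132 in control mice (median 932.4), against 120.6 to 689.7 after saline. The 4 highest lungs for Cfb were DHA mice, and the other 3 DHA mice lay among the control mice. For Cfb the log2 fold change was 0.68 (SE 0.35, exact permutation p = 0.0816), and 0.36 without control mice 3 and 6. Pigr, the stromal and epithelial gene with the smallest p, which carries IgA across the epithelium, gave 0.66 (SE 0.35, exact permutation p = 0.0746) and 0.30 without control mice 3 and 6, with 1102 to 2706 in DHA mice and 458.8 to 1828 in control mice. Stat5b, a transcription factor of cytokine signaling, held 184.5 to 399.7 in DHA mice and 249.8 to 859.0 in control mice. The highest value of Stat5b was control mouse 3, and the log2 fold change was -0.55 (exact permutation p = 0.169), or -0.19 without that mouse.

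Transcripts of the cytokines that the study also assayed as lavage proteins were measured for 6 genes. Areg and Mpo were not among the probes analysed here. For their proteins the study reported a diet difference after HDE, with AREG lower and MPO higher on the DHA diet. In the main edgeR fit all 6 measured genes had a log2 fold change above 0 (0.32 to 0.89) and none was past the unadjusted threshold. Csf2, the gene of GM-CSF, on which alveolar macrophages depend, held 420.9 to 1156 in DHA mice (median 546.7) and 50.7 to 692.6 in control mice (median 353.6), against 43.7 to 75.1 after saline. Only control mouse 1 lay within the range of the DHA mice. The log2 fold change of Csf2 was 0.89 (SE 0.45, 95% interval -0.05 to 1.84; exact permutation p = 0.0315). It was 0.67 without control mouse 6 and -0.01 on cartridge 1, short of the unadjusted threshold, and 1.65 on cartridge 2, past it, where control mouse 6 lay. Csf2 also passed this threshold with TMM scaling, in both DESeq2 fits, in limma and with all 4 groups in 1 model. It was short of it with all 14 housekeeping probes and with the cartridge as a block.

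Tnf and Il6, the early cytokines of the dust response, spread widely within the DHA group. Tnf held 306.6, 287.3, 649.1, 1516, 905.6, 283.6 and 613.5 scaled counts in the DHA mice, against 597.5, 558.1, 345.3, 549.0, 242.0 and 25.0 in the control mice and 17.2 to 83.0 after saline. DHA mice 1, 2 and 6 lay within the range of control mice 1 to 5, and 4 DHA mice exceeded every control mouse. Tnf had a log2 fold change of 0.75 (SE 0.57, 95% interval -0.45 to 1.95, exact permutation p = 0.234) and 0.42 without control mice 3 and 6. Il6 gave 0.55 (SE 0.51, exact permutation p = 0.268), with 96.5 to 441.5 in DHA mice and 12.5 to 250.5 in control mice, and 0.12 without control mice 3 and 6. The 95% interval of Il6, -0.54 to 1.64, like that of Tnf, spans both directions.

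Cxcl1, the neutrophil chemokine, was split differently among DHA mice, with mouse 7 on the low side. It held 2694, 2232 and 1245 in DHA mice 4, 5 and 3 and 221.4 to 600.2 in the other 4, against 651.5 to 1671 in control mice 1 to 5. Its log2 fold change of 0.37 (SE 0.69, exact permutation p = 0.664) was -0.01 without DHA mouse 4 and -0.01 without control mice 3 and 6. Ccl2, the monocyte chemokine, gave 0.44 (SE 0.63, exact permutation p = 0.359) and 0.10 without control mice 3 and 6, with 996.0 to 4307 in DHA mice, 1613 to 3737 in control mice 1 to 5 and 25.0 in control mouse 6. Mif, an abundant constitutive cytokine, gave 0.32 (SE 0.38, exact permutation p = 0.374; 0.24 without control mice 3 and 6) and ranged from 526.6 to 1672 in DHA mice and from 382.3 to 1510 in control mice.

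**Figure D3:**
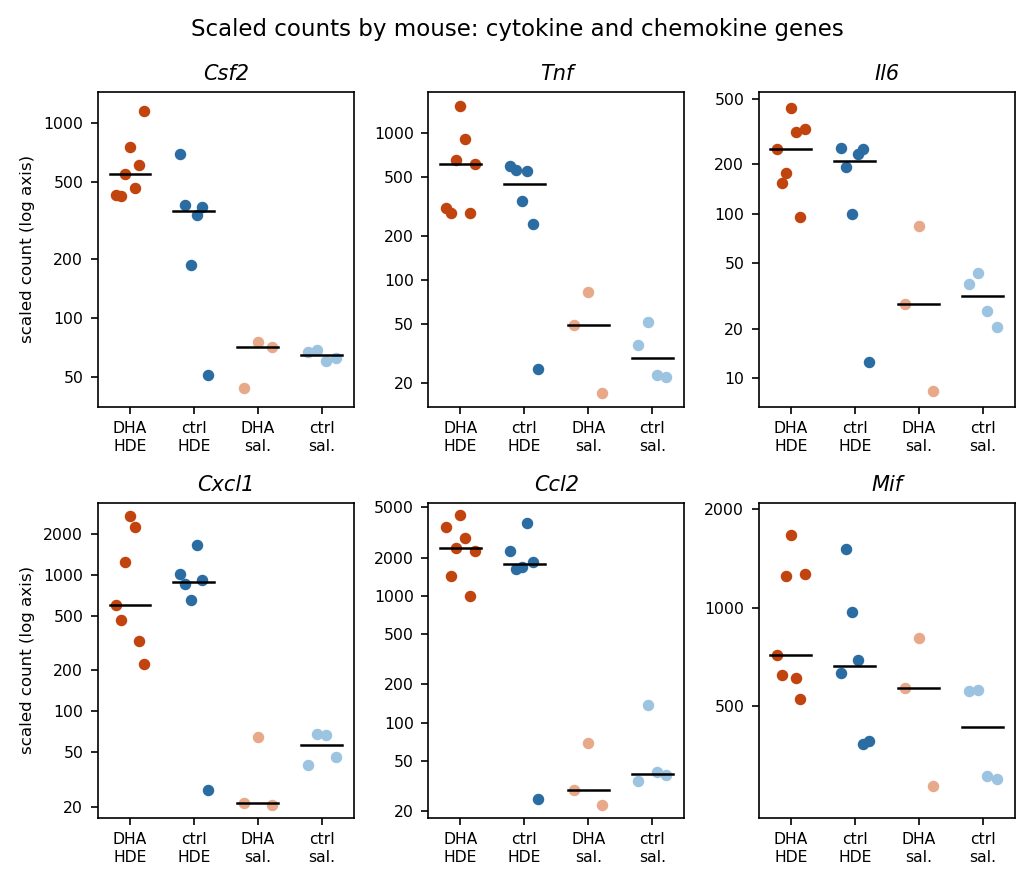
Scaled counts (log axis) of 6 cytokine and chemokine genes in each mouse; points are mice and bars are medians, for DHA diet + HDE (n = 7), control diet + HDE (n = 6), DHA diet + saline (n = 3) and control diet + saline (n = 4). The groups given HDE overlap in every panel, and the isolated low control point is control mouse 6 (Cxcl1 26.5, Ccl2 25.0).

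Further inflammatory genes had wide errors, and none was higher at the unadjusted threshold in the main edgeR fit. All 9 proinflammatory cytokine genes tested lay above 0 (median 0.59, beside 243 of 357 and 0.14 for all genes), and this median was 0.38 without control mouse 6 and 0.31 without control mice 3 and 6. Il1b, the main inflammasome-processed cytokine, ranged from 1650 to 12720 in DHA mice (median 5913) and from 88.1 to 4844 in control mice (median 3114), a log2 fold change of 0.88 (SE 0.63, 95% interval -0.46 to 2.23). Of 21 chemokine genes, 16 lay above 0 (median 0.30), and 11 did without control mice 3 and 6 (median 0.09). Cxcl10, an interferon-induced chemokine for T cells, had the highest fold among them, with 529.2 to 3966 in DHA mice and 19.7 to 1970 in control mice (log2 fold change 1.07, SE 0.66, 95% interval -0.34 to 2.48). Of 13 Toll-like and NOD receptor genes, 11 lay above 0 (median 0.32), and 7 did without control mice 3 and 6 (median 0.04, beside -0.02 and 174 of 357 for all genes). The highest was Tlr2, the receptor for bacterial lipoproteins, at 0.74 (SE 0.42, 95% interval -0.14 to 1.62). Tlr4, the endotoxin receptor, gave -0.11 (95% interval -0.79 to 0.57).

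Neutrophil markers did not differ beyond the spread between mice. All 7 tested lay at or above 0 (0.01 to 0.71, median 0.29, or 0.02 without control mice 3 and 6), and none passed the threshold. S100a8, a subunit of the neutrophil protein calprotectin, ranged from 2680 to 36047 in DHA mice (median 5987) and from 448.6 to 16167 in control mice (median 7221). DHA mouse 5 was the highest and the median was lower in the DHA group, although the fitted log2 fold change was 0.71 (SE 0.69, 95% interval -0.76 to 2.18). Csf3r and Cxcr2, receptors for G-CSF and for CXCL1 on neutrophils, gave 0.04 (SE 0.52) and 0.01 (SE 0.56). Ptafr, the receptor for platelet-activating factor, gave 0.67 (SE 0.58, 95% interval -0.57 to 1.91), with its highest values in DHA mice 4 (2965) and 5 (2382).

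Among antigen presentation, lipid mediator and resolution genes, Tgfbi alone passed the unadjusted threshold. The 15 dendritic cell and antigen presentation genes had a median of 0.24 (0.09 without control mice 3 and 6), and Cd74, the invariant chain of MHC class II, ranged from 6782 to 10792 in DHA mice and from 4760 to 9693 in control mice (log2 fold change 0.35, SE 0.24; exact permutation p = 0.0408; 0.22 without control mice 3 and 6). Only 4 lipid mediator genes were tested, 3 of them above 0 (median 0.39, or 0.25 without control mice 3 and 6), and Ptgs2, the inducible cyclooxygenase COX-2, gave 0.51 (SE 0.35, 95% interval -0.23 to 1.24), with 215.3 to 855.2 in DHA mice and 209.9 to 487.2 in control mice. Cmklr1, which encodes the receptor that chemerin and resolvin E1 bind, gave -0.11 (95% interval -0.74 to 0.52). Of 16 anti-inflammatory and resolution genes, 12 lay above 0 (median 0.13, beside 0.14 for all genes). Without control mice 3 and 6 the median was -0.02, as it was for all genes. Il1rn, the interleukin-1 receptor antagonist, gave 0.07 (95% interval -1.12 to 1.26), and Il10 lay at 6.8 to 20.9 in DHA mice and 5.7 to 53.8 in control mice, under the minimum for the test.

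Complement, JAK and STAT, and stromal genes were centered near the value of all genes. The 20 complement genes had a median of 0.21, and Cfd, the alternative pathway protease made largely by fat cells, varied most, with 28.2 to 1301 in DHA mice and 20.4 to 339.7 in control mice (log2 fold change 1.11, SE 0.79, 95% interval -0.57 to 2.79). Its median was lower in DHA mice (140.4) than in control mice (172.8), and DHA mice 1 (805.7) and 2 (1301) were the highest. The 13 JAK and STAT genes had a median of 0.19. Socs3 and Socs1, cytokine-induced inhibitors of JAK kinases, pointed in opposite directions, at 0.85 (95% interval -0.21 to 1.91) and -1.07 (95% interval -2.21 to 0.08), and Socs1 was -0.25 without control mouse 3. The 17 stromal, endothelial and epithelial genes had a median of 0.06. Without control mice 3 and 6 the medians were 0.02 for complement, 0.07 for JAK and STAT and -0.13 for the stromal list. The median of all genes was then -0.02. With TMM scaling the medians were -0.13 for the stromal list, -0.07 for the anti-inflammatory list and -0.03 for the B cell list, turned in sign, and 0.45 for the proinflammatory cytokines, 0.16 for the chemokines and 0.10 for the neutrophil list, where 4 of 7 genes then lay above 0.

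**Figure D4:**
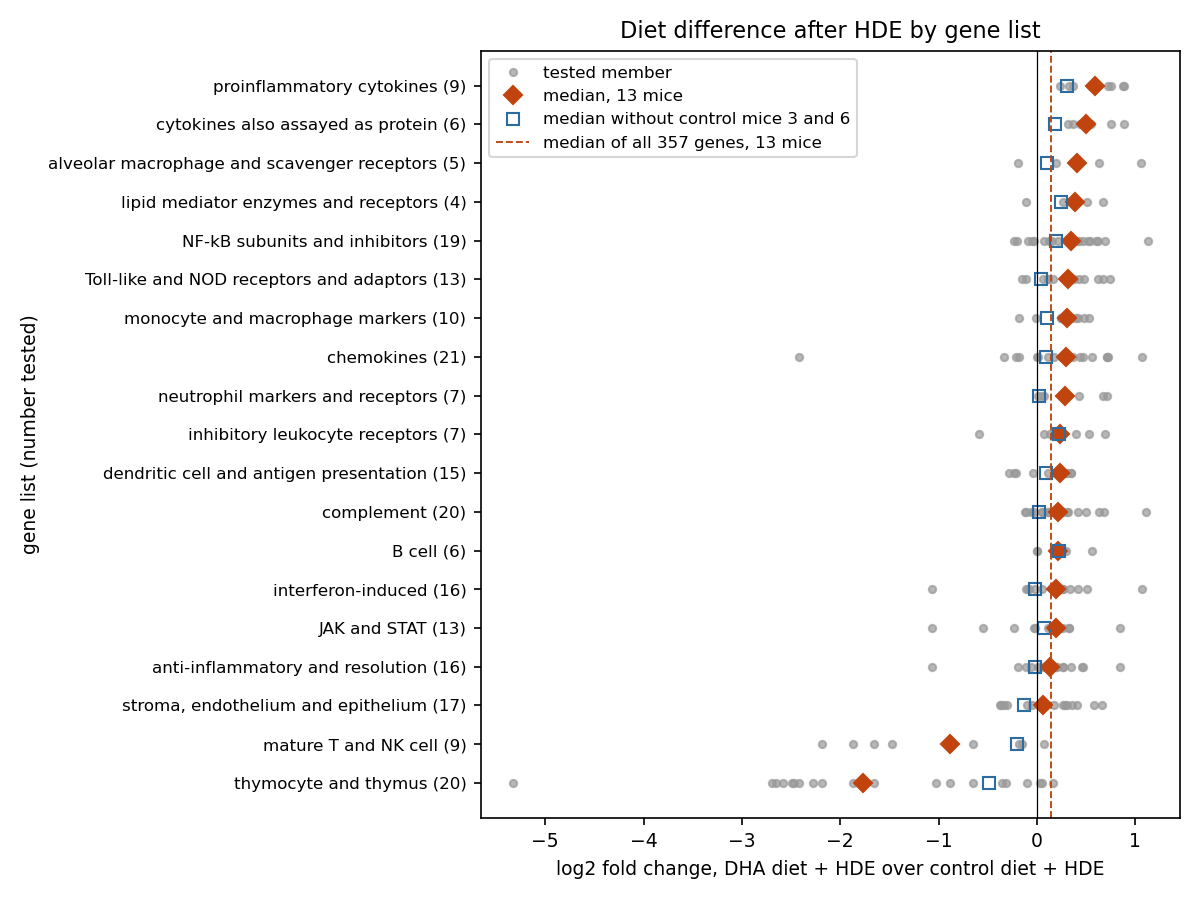
Log2 fold change of DHA diet + HDE over control diet + HDE for the tested members of 19 gene lists (grey points; number tested in parentheses), with the list median over the 13 mice (diamonds) and without control mice 3 and 6 (open squares); the dashed line is the median of all 357 genes (0.14). Inflammatory lists have medians of 0.29 to 0.59 that lie closer to 0 without these mice, and the thymocyte list has a median of -1.77 with them and -0.49 without them.

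The lower genes named above are known from T cells or the thymus, and their values followed individual control mice. Rag1 held 44.6, 14.8, 29.7, 48.7, 11.1, 4.7 and 12.6 scaled counts in the DHA mice, against 12.3, 348.2, 4865, 193.5, 8.7 and 5.3 in the control mice and 3.8 to 63.7 after saline. Control mice 2, 3 and 4 were high, and control mice 1, 5 and 6 lay within the range of the DHA mice. The fitted log2 fold change was -5.33 (SE 1.39, edgeR unadjusted p = 0.00143, adjusted p = 0.388), whereas the mean of log2 values differed by -2.05 and the exact permutation p was 0.205.

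Thy1, a surface protein of thymocytes and T cells, and Tcf7, a transcription factor of early T cells, followed the same mice. Thy1 held 36.9 to 71.9 in DHA mice, against 238.1, 1744 and 130.4 in control mice 2, 3 and 4 and 48.0 to 62.9 in the other 3. Its log2 fold change was -2.69 (SE 0.76, edgeR adjusted p = 0.388; exact permutation p = 0.100), -0.83 without control mouse 3 and 0.12 without control mice 2 to 4. Ccl25, the thymic chemokine, and its receptor Ccr9 gave -2.42 and -2.65, with 1194 and 804.0 scaled counts in control mouse 3 and at most 62.8 and 41.7 in any DHA mouse. Without control mouse 3, Ccl25 gave -0.31 and Ccr9, which was also high in control mouse 2 (299.5), gave -1.28, both short of the unadjusted threshold.

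Over the whole list, 30 of 37 thymocyte genes were on the panel and 20 were tested, of which 17 lay below 0 and 12 passed the unadjusted threshold (median -1.77). Over all 357 genes, 114 lay below 0 and 3.64% passed in this direction (median 0.14). Most of the lower genes entered the test through control mouse 3: without it, only 5 of the 13 averaged 82 counts. Of the genes under that minimum, Rag2 and Cd8b1 were also highest in control mice 3 and 2, and Runx3 was not. Rag2, the partner of Rag1, held at most 45.2 in DHA mice, against 84.5 in control mouse 2 and 447.8 in control mouse 3. Cd8b1, a subunit of CD8, held at most 38.0 in DHA mice, against 112.6 in control mouse 2 and 666.2 in control mouse 3. In control mouse 2, Rag2 lay below the lane background of 93.8 and Cd8b1 little above it. The summed level of the 20 tested thymocyte genes was 3418 to 7168 in DHA mice, and 3123 to 7009 in the control mice other than mouse 3, which reached 27920. The summed level of mature T and NK cell genes was 658.6 to 1093 in DHA mice, and 809.1 to 1500 in the control mice other than mouse 3 (5688). Without control mouse 3, 1 gene (Rag1, -2.31) remained lower at the unadjusted threshold, and without control mice 2 to 4 the list median was 0.36 and 0 genes did. The part that thymus tissue in a lung sample plays in these values was not tested.

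**Figure D5:**
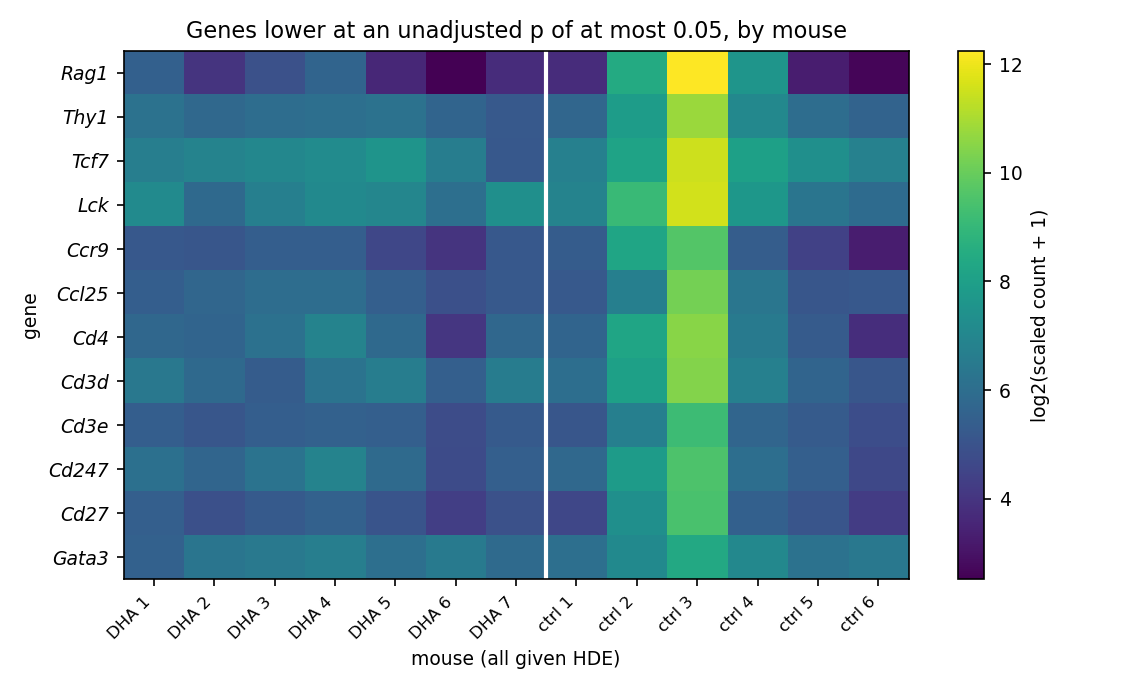
Log2(scaled count + 1) of 12 of the 13 genes that were lower on the DHA diet at an unadjusted p of at most 0.05, in the 7 DHA mice (left of the white line) and the 6 control mice (right), all given HDE. Control mouse 3 is the brightest column for every gene (Rag1 4865 scaled counts), followed by control mouse 2.

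The diets were also compared in the saline mice, and the difference after HDE was set against the difference after saline in a model of all 20 mice. In this test 0 of 357 genes passed an adjusted p under 0.05, and 11 (3.08%) had an unadjusted p of at most 0.05. Among these 11 were the T cell and thymus genes Rag1, Thy1, Lck, Ccr9, Ccl25, Cd27, Cd3d, Cd3e and Cd247, and also Marco. For Marco the diet difference was 1.06 after HDE and -0.30 (SE 0.49) after saline on the log2 scale, and the difference after HDE exceeded that after saline by 1.36 (SE 0.62, adjusted p = 0.997). For Bcl3 the difference of differences was 1.56 (SE 0.82, adjusted p = 0.997), and for Tgfbi it was 0.38 (SE 0.30, adjusted p = 0.997). Without control mouse 3 in the model, 1 gene had an unadjusted p of at most 0.05.

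A few mice held most of the extreme values. DHA mouse 4 was the highest of the 13 mice for 106 of 357 genes, DHA mouse 5 for 70, control mouse 3 for 49 and DHA mouse 3 for 35. DHA mouse 6 had the lowest summed scaled count of the DHA mice over the tested genes (214548, against a DHA median of 296034 and a control range of 149821 to 352207). The median SD of log2 scaled counts was 0.59 among the 7 DHA mice and 0.65 among the 6 control mice, or 0.42 among the 5 control mice without mouse 6. The SD was larger among control mice for 226 of 357 genes, and for 101 when control mouse 6 was left out.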

How the data were processed

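RNA of left lungs was hybridized to the NanoString mouse Immunology panel, and the authors deposited 1 table of raw counts per probe and lane and 1 of normalized signal. The deposited signal was the raw count scaled per lane by the geometric mean of Eef1g, Oaz1, Ppia and Rpl19, and equalled the scaled counts used here times 1.23, within a relative deviation of 9.38e-05. The raw counts of the 13 mice given HDE were tested with edgeR 4.0.16 (quasi-likelihood, offsets from the same 4 genes, R 4.3.3) on the 357 of 547 genes averaging at least 82 scaled counts, with Benjamini-Hochberg adjustment. Alternatives used DESeq2 1.42.0, limma 3.58.1 on log2(deposited signal + 1), other scalings and filters, the cartridge as a block or alone, and mice left out; the closing section gives their effect. Exact permutation tests used mean log2(scaled count + 1). Raw totals limit precision as given in the report, and no lane pair agreed within counting noise (lowest chi-square per degree of freedom 22.9 over 78 pairs). This compares lanes with counting noise alone and cannot show that each came from a separate mouse. Each lane was counted as 1 mouse because the paper describes left lungs selected at random from the mice. The cartridge, a name used here for a run, was read from the first part of each lane's title. Replicate numbers were given in accession order.

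The genes named by rule were every gene at an unadjusted p of at most 0.05, those the study named for this comparison, the measured transcripts of lavage proteins and, from every other list, the tested member with the smallest p; other named genes were chosen after their values were seen. The comparison, its gene lists and the rule were chosen with earlier results of these data known. Of the probe names, 531 equal a RefSeq symbol. Results of 1 of the 13 lower genes and of 1 other gene are not reported here, though both stayed in the fits and counts.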

Additional observations from a re-analysis of the deposited data

Results flagged for a closer look

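Within each group the highest or lowest mouse was set against the others for 33 named genes, 66 groups of values in all, and 16 stood apart by Dixon's criterion. Chance alone flags about 1 in 20 groups, a rate that does not apply to genes chosen through values of the same mouse, as the lower genes were. Of the 16, 14 were control diet + HDE mouse 3, and 12 of these were genes lower on the DHA diet. Its scaled counts were 4865 for Rag1, 1744 for Thy1, 2938 for Tcf7, 3070 for Lck, 804.0 for Ccr9 and 1194 for Ccl25. They were 694.2 for Cd27, 1401 for Cd3d, 584.4 for Cd3e, 1463 for Cd4, 741.8 for Cd247 and 331.9 for Gata3. Stat5b (859.0) and Socs1 (572.2), which were not on the thymocyte list, were also highest and apart in this mouse. The other 2 were Itgax in DHA diet + HDE mouse 4 (1005, next highest 551.6) and Cd74 in DHA diet + HDE mouse 7 (10792, next highest 8436).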

How the results depend on the processing

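No gene reached an adjusted p under 0.05 in edgeR or limma under any setting, and DESeq2 called 3 with its own size factors and 1 with the 4 housekeeping genes. The genes that DESeq2 called were all highest in control mouse 3. At the unadjusted threshold, genes higher in DHA mice (4 of 357 tested in the report) numbered 12 and 9 in these DESeq2 fits. They numbered 9 with all 4 groups in 1 model and 11 without control mice 2 to 4. With at least 82 counts required in every mouse they numbered 2 of 212 tested. They also numbered 2 on cartridge 1 alone, on cartridge 2 alone, without control mice 3 and 6, and without those mice and with the cartridge as a block. Genes lower in DHA mice (13 in the report) numbered 23 with TMM scaling, 20 with a mean of at least 20 counts, 20 with no filter, 1 with limma, 5 on cartridge 1, 4 on cartridge 2, 5 without control mice 3 and 6 (also with the block), and 0 with 82 counts in every mouse or without control mice 2 to 4. Leaving out 1 mouse gave 1 (without DHA mouse 4) to 11 (without control mouse 1) higher genes and 1 (without control mouse 3) to 16 lower genes (without control mouse 1). Without control mice 2 to 4 the sign turned for Rag1 (1.34), Thy1 (0.12), Lck (0.42), Ccr9 (0.49), Ccl25 (0.38), Cd27 (0.43), Cd3d (0.51), Cd3e (0.20), Cd4 (0.78), Cd247 (0.58), Gata3 (0.01), Stat5b (0.09) and Socs1 (0.52). Cxcl1 turned to -0.01 without control mice 3 and 6, to -0.03 when the block was added, and ranged from -0.01 to 0.68 with 1 mouse left out. Csf2 and Mif were -0.01 on cartridge 1 alone. Over 34 named genes and up to 30 alternatives each, exact tests included, 805 values kept direction and side of the threshold, 120 lost it, 46 gained it and 18 reversed; 8 pairs in 5 genes had no p from DESeq2 and were left out. The causes were not tested. The fit with the block and without control mice 3 and 6, and the exact tests, were added after seeing the data. No paired analysis was made, because the diet groups held different mice. The experimental set could not be used as a block, because the labels do not give it.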
